A study of Homo sapiens with 21 samples.

Results

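ERBB2, the gene for the receptor HER2, lies in a stretch of chromosome 17q12 that is amplified in HER2-positive breast cancer, and the genes on either side of it are carried along on the extra copies. 10 such neighbours were followed here across BT474 cells and antibody-resistant pools made from them: MED1, CDK12, STARD3, TCAP, PNMT, PGAP3, MIEN1, GRB7, IKZF3 and ORMDL3. Each was taken by its symbol from the 37355 rows of the deposited count table, where each of the 10 symbols had 1 row, and all 10 passed the filter on low counts that kept 17650 genes for testing. ERBB2 itself was left out of the set.

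BT474 is a human breast cancer cell line, labelled HER2-positive, that the labels call sensitive to HER2 antibodies. Trastuzumab and pertuzumab are antibodies that bind separate parts of the HER2 ectodomain. The 21 RNA-seq libraries formed 7 groups of 3: BT474 exposed to trastuzumab at 10 µg/mL for 3 days, BT474 exposed for 3 days to trastuzumab plus pertuzumab at 10 µg/mL of each, pool BT-TR1 and pool BT-TR2 (both trastuzumab-resistant), pool BT-TPR1 and pool BT-TPR2 (both resistant to the antibody pair), and BT474 left untreated. All 4 pools have a BT474 background and had been off antibody for 7 days when they were harvested. Each pool is 1 cell population sequenced 3 times, so a difference between a pool and untreated cells may belong to that pool alone. The labels do not say whether the 3 libraries of a group came from separate cultures, and the p-values below measure only the spread between these libraries.

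Amplified 17q12 genes differ in what they do. MED1 is a subunit of Mediator, the complex that links transcription factors to RNA polymerase II, and CDK12 is the cyclin K-dependent kinase that phosphorylates the tail of that polymerase during elongation. STARD3 is a sterol-binding protein of late endosomes, ORMDL3 restrains serine palmitoyltransferase at the start of sphingolipid synthesis, and PGAP3 remodels the lipid of GPI anchors in the Golgi. GRB7 is an SH2 adaptor that binds phosphorylated HER2, MIEN1 is a small membrane-tethered protein named for its effect on migration and invasion, IKZF3 (Aiolos) is a zinc-finger factor of lymphocytes, TCAP (telethonin) caps titin in the sarcomere, and PNMT makes adrenaline from noradrenaline. In breast cancer with this amplicon, many of them are expressed from the extra copies whether or not the tissue uses the protein.

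Library totals ran from 7939270 to 21746391 counts. Libraries numbered 1 stood apart: across genes, their deviation from the group mean correlated with GC content in each of the 7 groups (r from 0.313 to 0.627, across genes, which are not independent replicates), against -0.537 to 0.0828 in the other libraries. Of the 10 neighbours, STARD3, TCAP, PNMT, PGAP3, GRB7 and ORMDL3, with 53.99% to 67.68% GC, were highest in replicate 1 in 7 of 7 groups, and MED1 and CDK12, with 46.12% and 44.21% GC, were lowest in replicate 1 in 7 of 7. Same-numbered libraries deviated together in 7 of the 9 comparisons, so a fit with the replicate number as a block is given beside the fit without it where it changes a call. Defining luminal markers were high in every library (KRT8 526 to 1435 CPM, CDH1 1141 to 1783 CPM, GATA3 58.1 to 191 CPM), while TFAP2B reached at most 0.207 CPM. Basal KRT5 and KRT14 stayed at or below 0.233 CPM and the leukocyte marker PTPRC at or below 0.0582 CPM. Other markers on these lists were low but present in every library: basal TP63 (1.57 to 7.40 CPM) and OXTR (1.09 to 4.96 CPM), and leukocyte LYZ (0.140 to 1.29 CPM). Of the fibroblast genes COL1A1 stood at 15.8 to 46.2 CPM, with COL1A2, DCN and LUM at a median of 0.

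The 10 genes lie within 523.3 kb, from MED1 at chr17:39404285-39451286 to ORMDL3 at chr17:39921041-39927601 (hg38, GENCODE 29). In between, in order, are CDK12 (chr17:39461511-39564907), STARD3 (chr17:39637065-39663484), TCAP (chr17:39664187-39666555), PNMT (chr17:39667981-39670475), PGAP3 (chr17:39671122-39696797), MIEN1 (chr17:39728496-39730787), GRB7 (chr17:39737927-39747291) and IKZF3 (chr17:39757715-39864188). STARD3, TCAP, PNMT and PGAP3 are packed closely, with gaps of 702, 1425 and 646 bases. MED1, PGAP3, MIEN1, IKZF3 and ORMDL3 are read from the minus strand and the others from the plus strand. ERBB2, on the plus strand, shares 571 exon bases with MIEN1, which is 24.91% of the exon bases of MIEN1, and 194 exon bases with PGAP3, or 5.29%. Whether the counting used strand is not given in the sources used here, so in those stretches reads of ERBB2 cannot be told apart from reads of its partner.

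Though neighbours on chromosome 17, the 10 genes did not have like levels. The data used here give no copy number for any of them. Levels were divided by exon length so that genes can be set side by side, though only roughly. The length counts every annotated exon base, which for MIEN1 is the whole gene (2292 of 2292 bases). In CPM per kb of exon, ORMDL3 was the most abundant in untreated cells at 303 ± 43.6 (SD, n = 3), which put it in the top 0.49% of 17554 tested genes. PGAP3 (212 ± 74.3 CPM per kb), MED1 (184 ± 34.0) and STARD3 (171 ± 51.6) were within the top 1.0%, and these 3 did not differ beyond their spread. GRB7 stood at 95.5 ± 27.0, MIEN1 at 62.3 ± 8.77 and CDK12 at 46.8 ± 7.23 CPM per kb, all within the top 5.74%. IKZF3 stood at 15.5 ± 0.319 and TCAP at 9.68 ± 2.13 CPM per kb. PNMT, at 3.55 ± 2.16 CPM per kb, was close to the median of all tested genes, 3.65. The order was kept at its lower end in every group, where IKZF3, TCAP and PNMT were the 3 least abundant, while the mean of PGAP3 lay slightly above that of STARD3 in BT-TPR1 and below it in the other 3 pools.

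**Figure D1:**
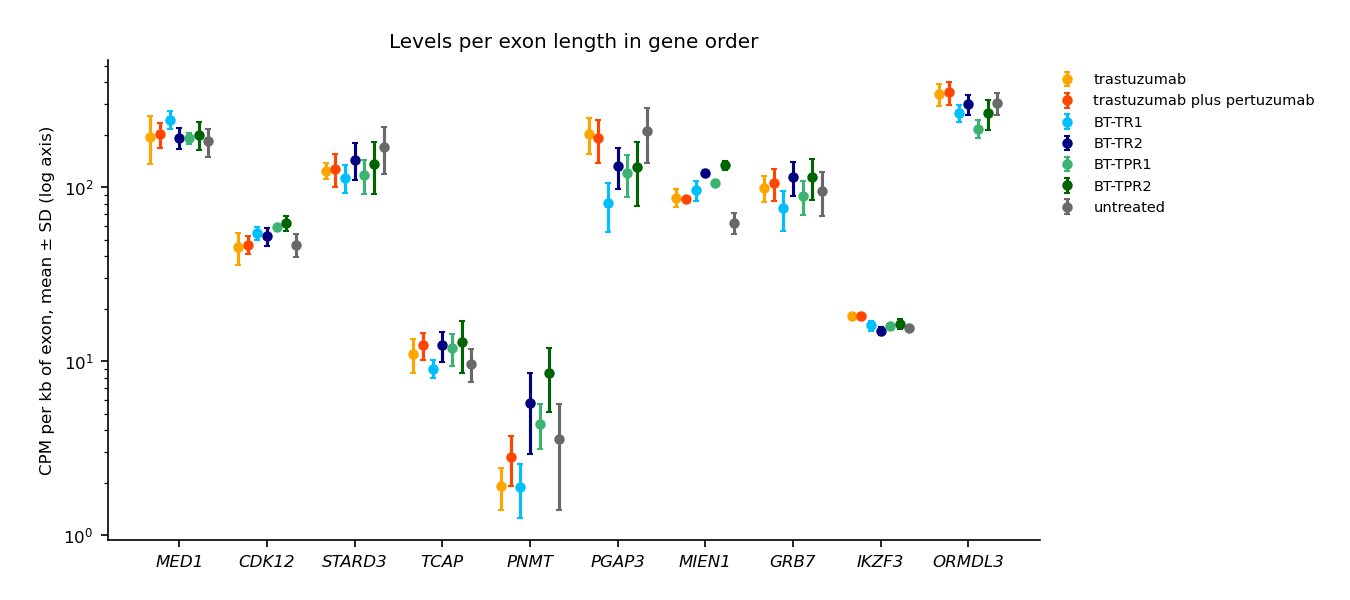
Level per exon length (CPM per kb, log axis) of the 10 genes in chromosomal order, with points for the mean and bars for the SD of 3 libraries in each of 7 groups. ORMDL3 was highest and PNMT lowest in untreated cells, and MIEN1 lay above its untreated level of 62.3 CPM per kb in the other 6 groups.

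Against untreated cells the 10 genes moved separately and in both directions. Calls were made where the adjusted p was under 0.05 in edgeR's quasi-likelihood test over all 17650 genes. With trastuzumab 1 of the 10 was called (MIEN1, higher), where 7.48% of all genes were, and with both antibodies 1 of 10 (MIEN1, higher), where 12.4% were. Against untreated cells 2 of 10 were called in BT-TR1 (MIEN1 higher, PGAP3 lower; 43.6% of all genes), 1 of 10 in BT-TR2 (MIEN1 higher; 24.9%), 2 of 10 in BT-TPR1 (MIEN1 higher, ORMDL3 lower; 27.3%) and 3 of 10 in BT-TPR2 (MIEN1, PNMT and CDK12 higher; 31.6%). In the pools these shares of the 10 lie at or below the share of all genes. The median log2 fold change of the 10 ran from -0.14 in BT-TR1 to 0.19 in BT-TPR2, against medians of all genes between -0.02 and 0.00. All 6 comparisons share the same 3 untreated libraries.

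With the replicate block, in the comparisons whose numbers pair libraries, 4 of 10 were called with trastuzumab (26.2% of all genes), 7 of 10 in BT-TR1 (57.5%), 4 of 10 in BT-TR2 (45.8%), 5 of 10 in BT-TPR1 (47.4%) and 7 of 10 in BT-TPR2 (51.1%). The genes gained were again split between higher and lower, and they are given gene by gene below.

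**Figure D2:**
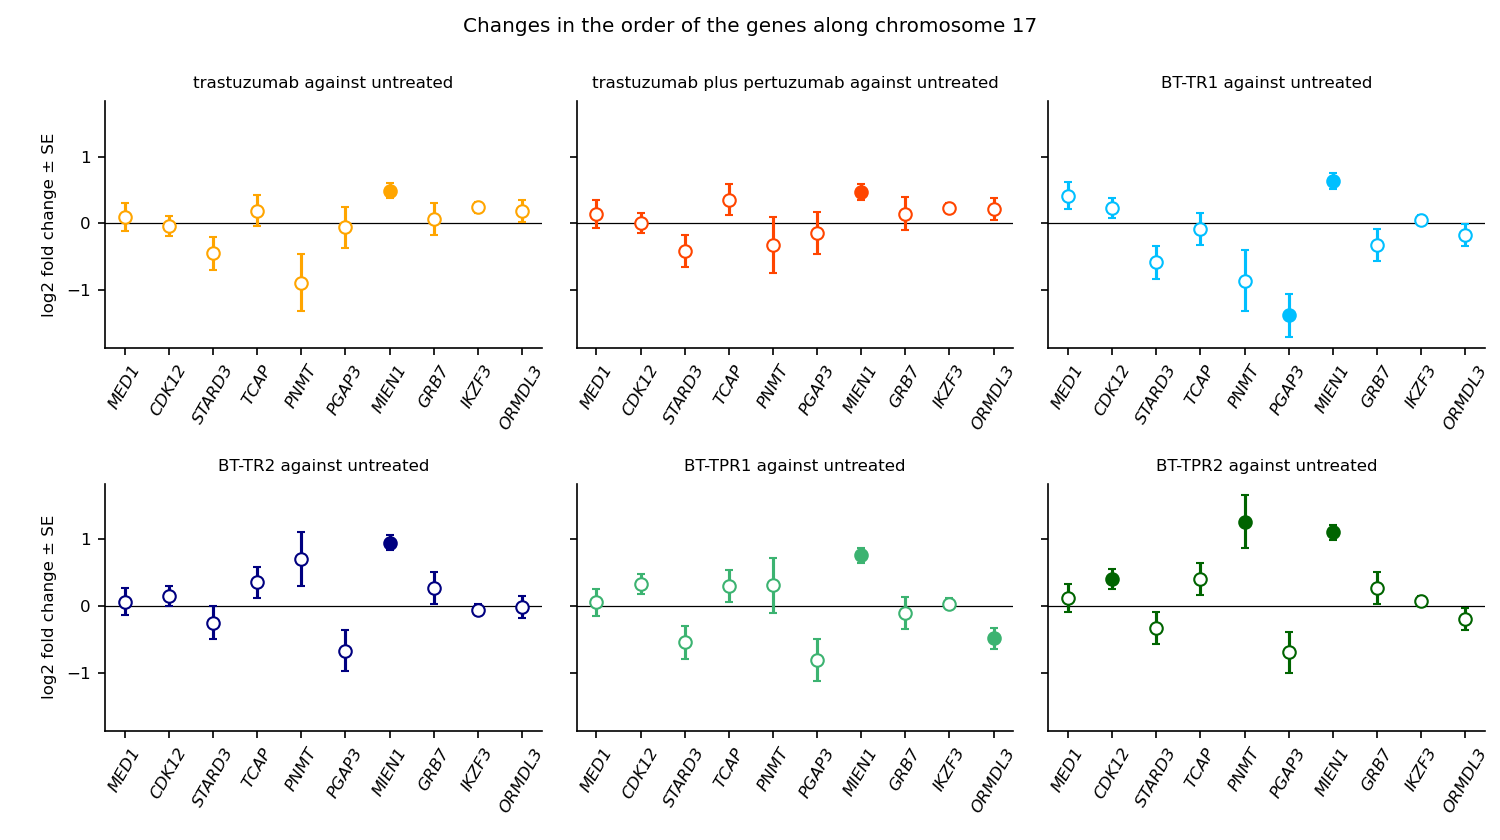
Log2 fold change against untreated cells (points, with bars for the standard error) of the 10 genes in chromosomal order, 1 panel per group; filled points have an adjusted p under 0.05. MIEN1 is filled in all 6 panels, and its neighbour PGAP3 lies below 0 in all 6, from -0.07 with trastuzumab to -1.39 in BT-TR1.

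MIEN1 rose in every group relative to untreated cells. With trastuzumab it stood at 228, 180.2 and 192 CPM in replicates 1, 2 and 3, and with both antibodies at 194, 198 and 200.3 CPM, against 154, 119.6 and 155 CPM in untreated cells. BT-TR1 libraries had 247, 189.6 and 227 CPM, BT-TR2 libraries 289.7, 269.8 and 269, BT-TPR1 libraries 244, 242 and 239.6 and BT-TPR2 libraries 293, 301 and 328. No library of any of these 6 groups was as low as the highest untreated library, while groups failed to overlap for 24.7% of all genes with trastuzumab, 28.7% with both antibodies, 49.8% in BT-TR1, 38.1% in BT-TR2, 40.7% in BT-TPR1 and 38.0% in BT-TPR2. The log2 fold change was 0.49 ± 0.11 with trastuzumab (SE, adjusted p = 0.0128) and 0.47 ± 0.11 with both antibodies (adjusted p = 0.0112). It was 0.63 ± 0.11 in BT-TR1 (adjusted p = 0.000340), 0.95 ± 0.11 in BT-TR2 (adjusted p = 7.12e-06), 0.76 ± 0.11 in BT-TPR1 (adjusted p = 7.88e-05) and 1.11 ± 0.12 in BT-TPR2 (adjusted p = 8.25e-07). The largest of these is a 2.15-fold higher level in BT-TPR2.

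With replicates 2 and 3 alone the MIEN1 changes were 0.45, 0.54, 0.60, 0.98, 0.82 and 1.20 in the same order of groups, all called. The 4 pool calls held under all 31 alternatives. The trastuzumab call was lost without untreated replicate 2 (0.39, adjusted p = 0.0625, range over alternatives 0.000324 to 0.123) and without trastuzumab replicate 1 (0.40, adjusted p = 0.0544). A fit of only the groups compared lost it (0.50, adjusted p = 0.123), as it did the call with both antibodies (0.48, adjusted p = 0.0764, range over alternatives 0.000187 to 0.0764). ERBB2, whose exons overlap those of MIEN1, had log2 fold changes of -0.45, -0.58, -0.59, -0.09, -0.47 and -0.26 in the same order, all below 0 and none called.

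MIEN1 shares a thioredoxin-like fold with the small selenoproteins SELENOW, SELENOT and SELENOH, listed in the count table under the older symbols SEPW1, SELT and C11orf31. None of the 3 was called with either antibody treatment. In the pools their calls were mixed: C11orf31 fell by 1.80 and SEPW1 fell by 0.35 in BT-TR1, SELT fell by 0.36 in BT-TR2 and fell by 0.42 in BT-TPR1, and SEPW1 rose by 0.55 in BT-TPR2 (all log2). That is 2 of 3 called in BT-TR1 and 1 of 3 in each other pool, beside the 24.9% to 43.6% of all genes given above.

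The 250 bases before the RefSeq start of MIEN1 (GRCh38.p14, chr17:39730533-39730782, minus strand) hold 25 CpG and 72.0% GC, against a median of 11 CpG over 34943 RefSeq promoters. By GENCODE 29 the window lies inside the first exon of MIEN1, so only a 30-base stretch near its downstream end is shown, since it holds both motif matches found there. Capitals mark a GC box (GGGCGG, here as CCGCCC on the other strand) and an E-box (CACGTG), searched on both strands.
MIEN1, chr17:39730538-39730567, minus strand: aggccCCGCCCcgtCACGTGcccgcggttc
The GC box letters occur in 42.5% of all such promoters and the E-box letters in 6.32%. A match describes the letters only.

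PGAP3, read from the strand opposite to ERBB2, was lower in the pools. BT-TR1 libraries had 385, 306 and 199 CPM, BT-TR2 libraries 638, 398 and 429.7, BT-TPR1 libraries 574, 342 and 411 and BT-TPR2 libraries 700.1, 361 and 375, against 1089.5, 595 and 643 CPM in untreated cells. After antibody it stood at 931, 703 and 590.5 CPM with trastuzumab and 911, 674 and 520.4 CPM with both. In BT-TR1 and BT-TPR1 no library reached the lowest untreated one, while in BT-TR2 and BT-TPR2 replicate 1 overlapped the untreated range. Groups failed to overlap for 49.8% of all genes in BT-TR1 and 40.7% in BT-TPR1. The fall in BT-TR1 was -1.39 ± 0.32 (adjusted p = 0.00220), to 0.382 of the untreated level, and it was called under all 31 alternatives, although the GC correction reduced it to -0.65 (adjusted p = 0.000694, range over alternatives 5.15e-21 to 0.0190). That correction also takes out differences between groups that follow GC content. In BT-TR2 (-0.67 ± 0.31, adjusted p = 0.127), BT-TPR1 (-0.81 ± 0.31, adjusted p = 0.0623) and BT-TPR2 (-0.70 ± 0.31, adjusted p = 0.0978) the change was not called.

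With the replicate block all 3 were called, in BT-TR2 (-0.65, adjusted p = 0.000150, range over alternatives 1.98e-05 to 0.494), BT-TPR1 (-0.79, adjusted p = 1.46e-05, range over alternatives 3.21e-07 to 0.318) and BT-TPR2 (-0.71, adjusted p = 3.78e-05, range over alternatives 1.84e-05 to 0.447). They were also called with the GC correction, at -0.53, -0.63 and -0.49, and with replicates 2 and 3 alone, at -0.57, -0.71 and -0.74. Without untreated replicate 1 and without the block they were -0.33, -0.46 and -0.35. With trastuzumab (-0.07 ± 0.31, adjusted p = 0.931) and with both antibodies (-0.15 ± 0.31, adjusted p = 0.813) PGAP3 was not called. Of 6 other genes of GPI anchor remodelling listed, 5 had a row and were tested. In BT-TR1, 2 of the 5 fell: TMEM8A, now PGAP6, fell by 1.95 and MPPE1 fell by 0.77 (log2). MPPE1, which removes an ethanolamine phosphate from the anchor, also fell by 0.68 in BT-TR2 and fell by 0.64 in BT-TPR1. None rose against untreated cells, and the 2 of 5 called in BT-TR1 stand beside 43.6% of all genes. Their median log2 fold change was -0.56 in BT-TR1, against -0.01 for all genes.

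The RefSeq promoter window of PGAP3 (chr17:39688058-39688307, minus strand, 11 CpG, 50.4% GC) overlaps exons of ERBB2 and PGAP3 in GENCODE 29. Short stretches of it are shown for the forkhead and ETS matches (a GC box also lies between them), with capitals marking a forkhead motif (GTAAACA) in the first and ETS cores (CCGGAA or TTCCGG) in the second.
PGAP3, chr17:39688279-39688307, minus strand: acaggggtggtgacaGTAAACAgccctac
PGAP3, chr17:39688062-39688091, minus strand: aggaacTTCCGGttactCCGGAAgtggaag
The forkhead letters occur in 2.98% and the ETS core letters in 14.5% of the 34943 promoters, again with both strands searched.

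STARD3 stood below its untreated level in each group, without a call in the fit lacking the block. It stood at 717, 639 and 575 CPM with trastuzumab and 811, 632 and 536 CPM with both antibodies, against 1187, 695 and 764 CPM in untreated cells. BT-TR1 libraries had 683, 600.3 and 475 CPM, BT-TR2 libraries 946, 613 and 669, BT-TPR1 libraries 752, 489 and 574 and BT-TPR2 libraries 968, 553 and 588. In every group each library was below the untreated library of the same number, but the groups overlapped except in BT-TR1 (where groups failed to overlap for 49.8% of all genes): replicate 1 of each of the other 5 groups lay above untreated replicate 2, the lowest untreated library. Log2 fold changes were -0.45 ± 0.24 with trastuzumab (adjusted p = 0.285), -0.42 ± 0.24 with both antibodies (adjusted p = 0.284), -0.59 ± 0.25 in BT-TR1 (adjusted p = 0.0585), -0.25 ± 0.24 in BT-TR2 (adjusted p = 0.485), -0.54 ± 0.25 in BT-TPR1 (adjusted p = 0.107) and -0.33 ± 0.24 in BT-TPR2 (adjusted p = 0.326).

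The replicate block called STARD3 lower with trastuzumab (-0.42, adjusted p = 0.00698, range over alternatives 0.00385 to 0.749), in BT-TR1 (-0.56, adjusted p = 0.000127, range over alternatives 0.000127 to 0.623), in BT-TPR1 (-0.53, adjusted p = 0.000399, range over alternatives 0.000170 to 0.505), and for BT-TPR2 (-0.33, adjusted p = 0.0143, range over alternatives 0.0143 to 0.940). In BT-TR1 the GC correction turned the sign (0.07, adjusted p = 0.623), and elsewhere it left -0.31, -0.39 and -0.16, with trastuzumab, in BT-TPR1 and in BT-TPR2, called in all but BT-TPR2. With replicates 2 and 3 alone STARD3 was called lower in BT-TR1 (-0.44), BT-TPR1 (-0.44) and BT-TPR2 (-0.35), and was not called with trastuzumab (-0.25). In the fit lacking the block, leaving out untreated replicate 1 brought the changes to -0.17 with trastuzumab, -0.13 with both antibodies, -0.29 in BT-TR1, -0.24 in BT-TPR1 and -0.03 in BT-TPR2, where leaving out BT-TPR2 replicate 1 gave -0.63. STARD3 tethers endosomes to the endoplasmic reticulum through VAPA and VAPB and works in the same sterol traffic as NPC2. Of 6 listed partners, all tested, VAPA rose in all 4 pools (by 0.52, 0.41, 0.37 and 0.42), and MOSPD2, another tether of this kind, rose in BT-TR1 (by 0.82). The paralog STARD3NL fell by 0.28 in BT-TR2, fell by 0.31 in BT-TPR1 and fell by 0.40 in BT-TPR2. NPC2 fell by 0.88 in BT-TPR1 and fell by 1.02 in BT-TPR2 (log2). In all, 3 partners rose and 0 fell in BT-TR1, 1 rose and 1 fell in BT-TR2, and 1 rose and 2 fell in each of BT-TPR1 and BT-TPR2, and none was called with either antibody treatment. Called partners were thus 2 or 3 of 6 in each pool, where 43.6% of all genes were called for BT-TR1, 24.9% for BT-TR2, 27.3% for BT-TPR1 and 31.6% for BT-TPR2.

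CDK12 was higher in the pools resistant to both antibodies. BT-TPR1 libraries had 727, 755 and 773 CPM and BT-TPR2 libraries 705, 858 and 824, against 497, 678 and 619 CPM in untreated cells, and all 6 of these pool libraries lay above the untreated range. Groups failed to overlap for 40.7% of all genes in BT-TPR1 and 38.0% in BT-TPR2. CDK12 stood at 632, 744 and 716 CPM in BT-TR1 and 572, 718 and 711 in BT-TR2, which overlapped the untreated range. After antibody it stood at 443, 675 and 619 CPM with trastuzumab and 520.2, 609 and 665 CPM with both. The rise in BT-TPR2 was 0.41 ± 0.15 (adjusted p = 0.0438, range over alternatives 0.000153 to 0.173), or 1.33-fold, and in BT-TPR1 the change was 0.33 ± 0.15 (adjusted p = 0.111). With the block both were called, at 0.42 in BT-TPR2 (adjusted p = 0.000318) and 0.34 in BT-TPR1 (adjusted p = 0.00221, range over alternatives 0.000882 to 0.311), as was BT-TR1 (0.23, adjusted p = 0.0268, range over alternatives 0.0268 to 0.577). The call in BT-TPR2 was close to the threshold: it held under 18 of 31 alternatives and was lost with 11 of the 21 libraries left out in turn, namely untreated replicates 1 and 3 (0.31 and 0.43), BT-TPR2 replicates 2 and 3 (0.34 and 0.39), trastuzumab replicate 3, replicate 2 with both antibodies, BT-TR2 replicates 2 and 3, and BT-TPR1 replicates 1, 2 and 3 (0.40 to 0.42). It was also lost with library size alone (0.50, adjusted p = 0.0688) and in a fit of only the groups compared (0.43, adjusted p = 0.0950).

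CDK12 partners in the table were cyclin K (CCNK) and the related kinases CDK13 and CDK9, of which none was called in BT-TR2, BT-TPR1 or BT-TPR2 or with antibody. In BT-TR1 CCNK rose by 0.44 and CDK13 by 0.26, while CDK9 fell by 0.63 (log2), in a comparison with 43.6% of all genes called. The CDK12 promoter is printed whole because its RefSeq window (chr17:39461236-39461485, plus strand) touches no GENCODE 29 exon. It holds 18 CpG and 48.8% GC and no match to the 6 motifs searched (GC box GGGCGG, ETS core CCGGAA, E-box CACGTG, forkhead motif GTAAACA, the core promoter letters TATAAA, and the letters CCAAT, both strands), which says only that these letters are not in the window.
CDK12, chr17:39461236-39461485, plus strand: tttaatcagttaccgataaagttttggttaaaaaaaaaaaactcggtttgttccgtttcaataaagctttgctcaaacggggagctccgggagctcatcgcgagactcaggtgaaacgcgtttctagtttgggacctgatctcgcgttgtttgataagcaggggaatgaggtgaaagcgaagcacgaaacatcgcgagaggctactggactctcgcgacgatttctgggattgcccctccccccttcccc

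MED1, encoded next to CDK12, was not called in any comparison. It spanned 927 to 1724 CPM with trastuzumab, 1229 to 1719 with both antibodies, 1548 to 1953 in BT-TR1, 1184 to 1566 in BT-TR2, 1282 to 1495 in BT-TPR1 and 1156 to 1629 in BT-TPR2, against 1060.0 to 1518 CPM in untreated cells. All 3 BT-TR1 libraries lay above the untreated ones (groups failed to overlap for 49.8% of all genes there), and the other groups overlapped them. In BT-TR1 the log2 fold change was 0.41 ± 0.21 (adjusted p = 0.111), called with the block (0.43, adjusted p = 0.00106, range over alternatives 0.00106 to 0.331). In the other comparisons with untreated cells it ran from 0.06 to 0.14.

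Of 29 other Mediator subunits, all tested, 7 rose and 6 fell in BT-TR1, 5 rose and 2 fell in BT-TR2, 7 rose and 1 fell in BT-TPR1, and 6 rose and 3 fell in BT-TPR2. The called share was 44.8% in BT-TR1, where 43.6% of all genes were called, 24.1% in BT-TR2 (24.9%), 27.6% in BT-TPR1 (27.3%) and 31.0% in BT-TPR2 (31.6%), near the share of all genes in each pool. None was called with trastuzumab, and 3 rose and 1 fell under the antibody pair, 13.8% beside 12.4% of all genes. In BT-TR1 the tail subunit MED16 fell by 1.98, MED25 fell by 1.03 and MED22 fell by 1.04, and MED16 fell by 1.11 in BT-TPR2 (log2). CDK8, the kinase of the Mediator kinase module, rose by 0.87 in BT-TR2, 0.67 in BT-TPR1 and 0.67 in BT-TPR2. The median over the 29 was 0.07 for BT-TR1, 0.16 for BT-TR2, 0.22 for BT-TPR1 and 0.25 for BT-TPR2, against medians of all genes between -0.01 and 0.00.

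ORMDL3 fell in BT-TPR1. BT-TPR1 libraries had 886, 703 and 848 CPM and BT-TPR2 libraries 1208, 820.0 and 959, against 1317, 997 and 1099.5 CPM in untreated cells. It stood at 1079, 1062 and 872 CPM in BT-TR1 and 1284, 1006 and 1085 in BT-TR2. With trastuzumab the values were 1497, 1248 and 1125 CPM and with both antibodies 1539, 1249 and 1159 CPM. BT-TPR1 was the only group whose 3 libraries all lay under the lowest untreated one, in a comparison where groups failed to overlap for 40.7% of all genes. The fall there was -0.49 ± 0.16 (adjusted p = 0.0323, range over alternatives 0.000178 to 0.163), to 0.714 of the untreated level, and it was -0.42 with replicates 2 and 3 alone and -0.42 with the GC correction, both called. It was lost without untreated replicate 1 (-0.34, adjusted p = 0.163) and without BT-TPR1 replicate 2 (-0.40, adjusted p = 0.123), and with library size alone as the scaling (-0.34, adjusted p = 0.0531), which moved the median of all genes up by 0.14 in this comparison, and in a fit of only the groups compared (-0.49, adjusted p = 0.0525). Against untreated cells the other comparisons gave -0.19 to 0.21, none called.

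Serine palmitoyltransferase, which ORMDL proteins hold in check, makes the first step of sphingolipid synthesis from subunits SPTLC1, SPTLC2 or SPTLC3 and a small subunit, SPTSSA or SPTSSB. With the ORMDL3 paralogs ORMDL1 and ORMDL2 these made a list of 7, all tested, of which 2 rose and 1 fell in BT-TR1, 1 rose and 3 fell in BT-TR2, 0 rose and 3 fell in BT-TPR1 and 0 rose and 4 fell in BT-TPR2. Calls made up 42.9% of the list in BT-TR1, beside 43.6% of all genes, 57.1% in BT-TR2 (24.9%), 42.9% in BT-TPR1 (27.3%) and 57.1% in BT-TPR2 (31.6%). SPTLC2 fell by 0.92 in BT-TPR1 and fell by 0.95 in BT-TPR2. SPTLC3 fell by 0.77 in BT-TR1, fell by 1.27 in BT-TR2 and fell by 1.21 in BT-TPR2. SPTSSB rose by 0.95 and 0.44 in BT-TR1 and BT-TR2, and fell by 0.65 in BT-TPR1 and fell by 0.89 in BT-TPR2 (log2). ORMDL1 fell by 0.47 in BT-TR2 and fell by 0.44 in BT-TPR1. With trastuzumab SPTSSB fell by 0.56, and it was higher with both antibodies than with trastuzumab alone (0.85).

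ORMDL3 has 3 RefSeq start sites, and the promoter of the one furthest upstream (chr17:39927602-39927851, minus strand) is printed since it lies outside the gene in GENCODE 29, although a lincRNA exon (AC090844.2) overlaps it. Its 250 bases hold 27 CpG and 62.0% GC, and capitals mark a GC box.
ORMDL3, chr17:39927602-39927851, minus strand: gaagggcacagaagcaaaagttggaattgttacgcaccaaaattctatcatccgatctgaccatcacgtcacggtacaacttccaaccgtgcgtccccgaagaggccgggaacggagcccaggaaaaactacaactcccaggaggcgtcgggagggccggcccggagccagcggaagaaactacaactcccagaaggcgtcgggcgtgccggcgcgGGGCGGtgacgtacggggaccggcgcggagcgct

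PNMT, the least abundant of the 10, ranged from 1.93 to 18.1 CPM over the 21 libraries. It stood at 18.1, 9.95 and 9.15 CPM in BT-TPR2 and 8.34, 6.10 and 4.68 in BT-TPR1, against 8.74, 2.79 and 3.99 CPM in untreated cells. In BT-TR2 it stood at 13.1, 5.87 and 6.16 CPM and in BT-TR1 at 3.86, 2.09 and 2.38 CPM. With trastuzumab it stood at 3.37, 3.03 and 1.93 CPM and with both antibodies at 5.22, 4.45 and 2.68 CPM. These levels rest on 18 to 311 counts per library, and untreated replicate 1 stood well above the other untreated libraries. All 3 BT-TPR2 libraries were above the untreated range (groups failed to overlap for 38.0% of all genes there), and the rise there was 1.27 ± 0.40 (adjusted p = 0.0221, range over alternatives 2.11e-10 to 0.101), or 2.41-fold. It was lost without untreated replicate 2 (0.99, adjusted p = 0.0885), untreated replicate 3 (1.10, adjusted p = 0.0800) or BT-TPR2 replicate 1 (0.89, adjusted p = 0.101), and it was 1.94 with the GC correction (adjusted p = 4.44e-08), over 1.5 times the value without it. A fit of only the groups compared also lost the call (1.29, adjusted p = 0.0596).

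The block also called PNMT higher in BT-TR2 (0.70, adjusted p = 0.00344, range over alternatives 1.96e-06 to 0.731) and lower with trastuzumab (-0.83, adjusted p = 0.00495, range over alternatives 0.00494 to 0.752) and in BT-TR1 (-0.88, adjusted p = 0.00267, range over alternatives 0.00267 to 0.705). In BT-TR1 that direction turned with the GC correction, to 0.68 (adjusted p = 0.0205), PNMT having the highest GC content of the 10. Without untreated replicate 1 the changes were -0.29 with trastuzumab, -0.24 in BT-TR1 and 1.30 in BT-TR2. With the correction PNMT was also called higher in BT-TR2 (1.19) and BT-TPR1 (0.79). The other genes of the adrenaline pathway stayed near 0: DBH was at most 0.0575 CPM in any library, DDC at most 0.721 and TH at most 2.44. TCAP, encoded 1425 bases before PNMT, was not called in any comparison. It spanned 17.6 to 27.7 CPM with trastuzumab, 21.2 to 30.4 with both antibodies, 16.6 to 20.7 in BT-TR1, 21.4 to 31.6 in BT-TR2, 20.1 to 30.6 in BT-TPR1 and 22.0 to 37.6 in BT-TPR2, against 15.4 to 23.6 CPM in untreated cells, all overlapping. The block called it higher in BT-TPR2 (0.38, adjusted p = 0.0370, range over alternatives 3.44e-05 to 0.762), where leaving out BT-TPR2 replicate 1 brought the change to 0.10. With the GC correction TCAP was called higher in all 6 comparisons, at 0.40 with trastuzumab, 0.66 with both antibodies, 0.80 in BT-TR1, 0.54 in BT-TR2, 0.50 in BT-TPR1 and 0.67 in BT-TPR2, against -0.09 in BT-TR1 without it. Its sarcomere partner TTN stood at 3.04 to 5.17 CPM, and ACTN2 was at 0 in 20 of 21 libraries.

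GRB7, the adaptor nearest to HER2 in function, was not called in any comparison. It spanned 313 to 426 CPM with trastuzumab, 308 to 463 with both antibodies, 206 to 346 in BT-TR1, 357 to 519 in BT-TR2, 262 to 396 in BT-TPR1 and 348 to 541 in BT-TPR2, against 264 to 452 CPM in untreated cells, all overlapping. Its log2 fold changes, each relative to untreated cells, lay between -0.33 (BT-TR1, adjusted p = 0.276) and 0.27 (BT-TPR2, adjusted p = 0.420). With the block it was called higher in BT-TR2 (0.27, adjusted p = 0.0198, range over alternatives 2.61e-05 to 0.867) and BT-TPR2 (0.27, adjusted p = 0.0202, range over alternatives 1.14e-06 to 0.944) and lower in BT-TR1 (-0.33, adjusted p = 0.00474, range over alternatives 4.49e-05 to 0.866), where the GC correction turned the sign, to 0.37 (adjusted p = 0.00123). Without untreated replicate 1 the changes were -0.06 in BT-TR1, 0.52 in BT-TR2 and 0.53 in BT-TPR2. The GC correction also called GRB7 higher with both antibodies (0.37), in BT-TR2 (0.38) and in BT-TPR2 (0.47). Among 4 related adaptors, 1 rose with trastuzumab, 1 rose and 2 fell under the antibody pair, 0 rose and 1 fell in each of BT-TR1 and BT-TR2, 2 rose in BT-TPR1 and 1 rose in BT-TPR2. Of all genes 7.48% were called with trastuzumab, 12.4% with both antibodies and 24.9% to 43.6% in the pools. GRB2 rose with trastuzumab (by 0.36), with both antibodies (by 0.35), in BT-TPR1 (by 0.32) and in BT-TPR2 (by 0.34). The GRB7 paralog GRB10 fell by 0.40 under both antibodies together, fell by 0.74 in BT-TR1 and fell by 0.44 in BT-TR2, and rose by 0.38 in BT-TPR1 (log2).

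IKZF3, the lymphocyte factor, was not called in any comparison. It stood at 179, 189.5 and 181 CPM with trastuzumab and 173, 185 and 187 CPM with both antibodies, against 157, 158 and 152 CPM in untreated cells, so that both antibody groups lay wholly above the untreated range. Groups failed to overlap for 24.7% of all genes with trastuzumab and 28.7% with both antibodies. IKZF3 spanned 149 to 171 CPM in BT-TR1, 140.0 to 155 in BT-TR2, 157 to 164 in BT-TPR1 and 154 to 175 in BT-TPR2, which overlapped the untreated libraries. The changes with trastuzumab (0.24 ± 0.08, adjusted p = 0.0793) and with both antibodies (0.23 ± 0.08, adjusted p = 0.0714) were not called, and the block called the first (0.24, adjusted p = 0.0129, range over alternatives 0.0129 to 0.521). DESeq2 called it with trastuzumab (0.25, adjusted p = 0.0133) and with both antibodies (0.23, adjusted p = 0.01535). Replicates 2 and 3 alone also called the change with both antibodies (0.28, adjusted p = 0.0394). B cell markers were near 0 beside it: MS4A1 was at 0 in 19 and PAX5 in 18 of 21 libraries, and CD79A reached at most 0.449 CPM. Of 4 other Ikaros family genes, IKZF5 rose with trastuzumab (by 0.60) and in BT-TR1 (by 0.42), and IKZF2 rose in BT-TR1 (by 0.67), all log2, while 1 of the 4 fell in BT-TR2. The share of all genes called was 7.48% with trastuzumab, 43.6% in BT-TR1 and 24.9% in BT-TR2.

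**Figure D3:**
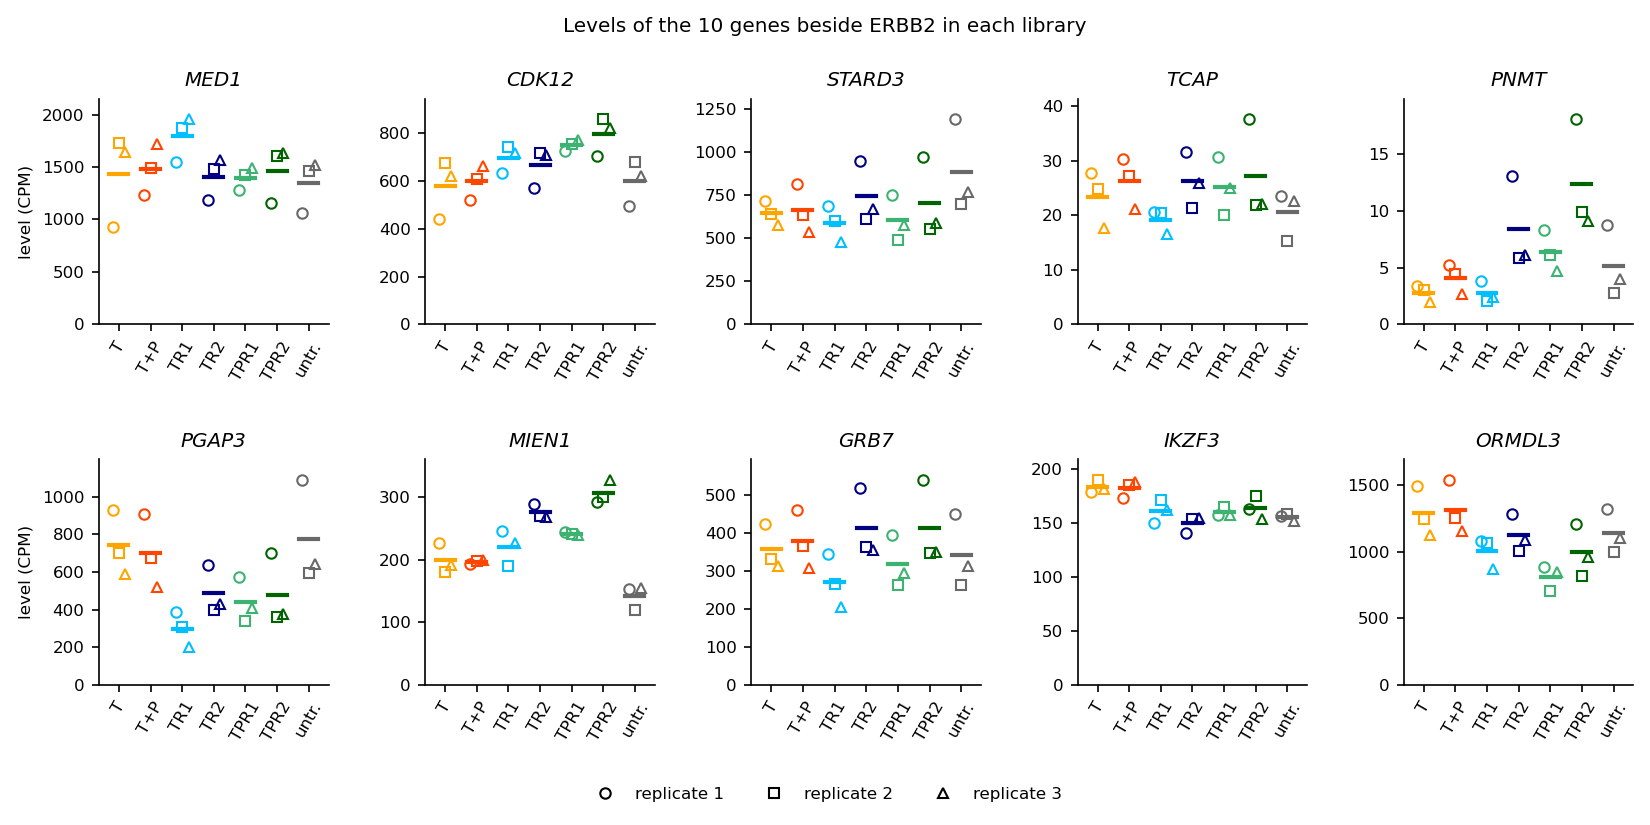
Level (CPM, linear axis from 0) of each of the 10 genes in all 21 libraries, with symbols for replicate number and a line for the group mean. Groups are trastuzumab (T), trastuzumab plus pertuzumab (T+P), BT-TR1 (TR1), BT-TR2 (TR2), BT-TPR1 (TPR1), BT-TPR2 (TPR2) and untreated (untr.). Circles (replicate 1) are the highest of the group for STARD3, TCAP, PNMT, PGAP3, GRB7 and ORMDL3 and the lowest for MED1 and CDK12 in 7 of 7 groups.

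Because GC content and library number moved together, pairs of these genes that differ by at most 2 percentage points in GC were also set against each other inside each library, where scaling cancels. These ratios were chosen after seeing the data and carry no test, and how often other gene pairs fail to overlap was not counted. PGAP3 over GRB7, which differ by 0.42 points, gave ratios as follows: BT-TR1 libraries had 1.11, 1.15 and 0.964, BT-TR2 libraries 1.23, 1.09 and 1.20, BT-TPR1 libraries 1.45, 1.30 and 1.39 and BT-TPR2 libraries 1.29, 1.04 and 1.07, against 2.41, 2.25 and 2.04 in untreated cells. The pools did not overlap the untreated libraries, and their mean ratio was 0.481 to 0.617 of the untreated one (geometric means). With trastuzumab the ratio was 2.19, 2.11 and 1.89, which overlapped untreated, and with both antibodies 1.97, 1.83 and 1.69, which did not.

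STARD3 over GRB7, 0.69 points apart, was 1.68, 1.92 and 1.84 in trastuzumab libraries and 1.75, 1.72 and 1.74 under both antibodies, against 2.63, 2.63 and 2.43 in untreated cells. BT-TR1 libraries had 1.98, 2.26 and 2.30, BT-TR2 libraries 1.82, 1.68 and 1.87, BT-TPR1 libraries 1.90, 1.86 and 1.94 and BT-TPR2 libraries 1.79, 1.59 and 1.67. None of the 6 groups overlapped the untreated libraries, and for this pair the replicates of a group lay closer together than those of STARD3 in CPM. MIEN1 over ORMDL3, 0.84 points apart, ran from 0.178 in BT-TR1 to 0.367 in BT-TPR2 over the 12 pool libraries and spanned 0.144 to 0.171 with trastuzumab and 0.126 to 0.173 with both antibodies, against 0.117, 0.120 and 0.141 in untreated cells. It overlapped untreated cells with both antibodies, where MIEN1 itself was called higher, and in no other group. MED1 over CDK12, 1.91 points apart, was 1.76, 1.88 and 1.93 for BT-TPR1 libraries and 1.64, 1.87 and 1.98 for BT-TPR2 libraries, against 2.13, 2.15 and 2.45 in untreated cells, again without overlap. It overlapped untreated cells in the other 4 groups, at 2.09 to 2.66 with trastuzumab, 2.36 to 2.59 with both antibodies, 2.45 to 2.73 in BT-TR1 and 2.06 to 2.20 in BT-TR2. A ratio shows that 2 genes changed unequally and not which of them changed.

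**Figure D4:**
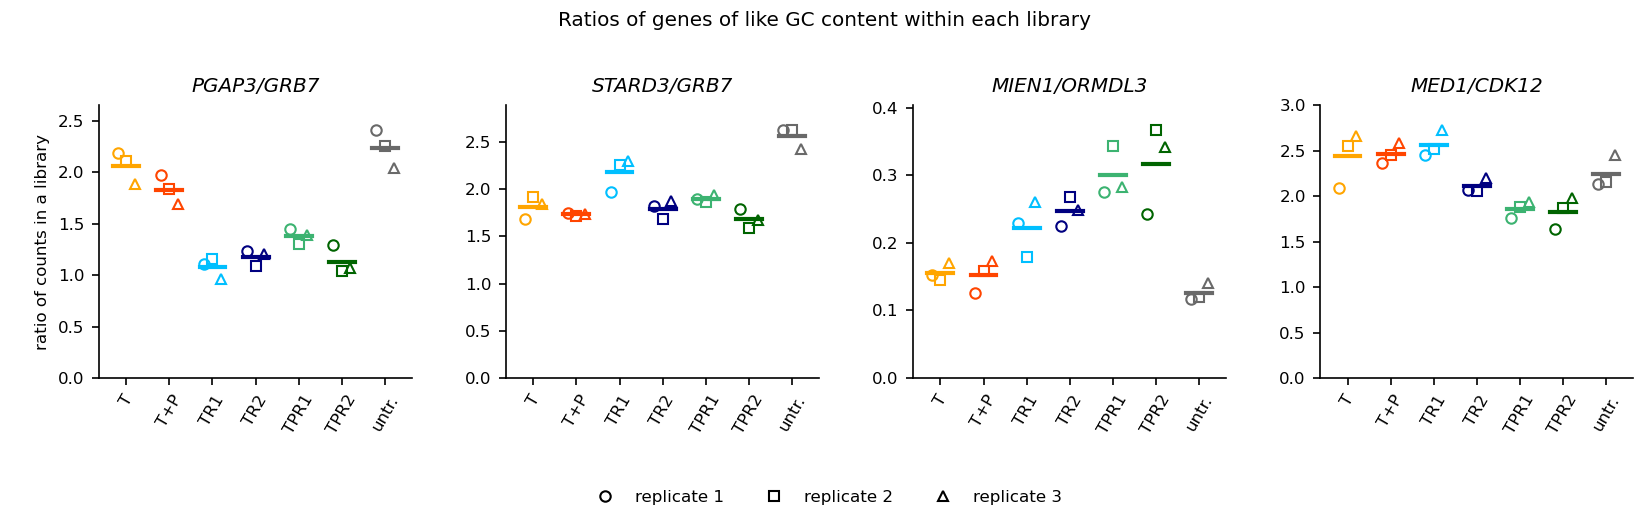
Ratio of the counts of 2 genes of like GC content inside each library (linear axes from 0), with symbols for replicate number and lines for group means; group names are as in the plot of levels by library. PGAP3 over GRB7 lies at 0.964 to 1.45 in the pools, against 2.04 to 2.41 in untreated cells.

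Between the antibody treatments and between pools of one kind, the calls among the 10 depended on the fit. Both antibodies against trastuzumab gave 0 of 10 calls (0.867% of all genes, 2.20% with the block) in edgeR's quasi-likelihood test, with 0 of 10 at an unadjusted p under 0.05, and 0 with DESeq2, limma or the block. The log2 fold changes there ran from -0.08 (PGAP3) to 0.57 (PNMT), and that of MIEN1 was -0.02 ± 0.11. BT-TPR2 against BT-TPR1 gave 0 of 10 (3.45% of all genes), with 2 of 10 at an unadjusted p under 0.05 in edgeR's quasi-likelihood test, and 0 with DESeq2 or limma. All 10 log2 fold changes there were above 0, from 0.04 (IKZF3) to 0.96 (PNMT). Their median was 0.17, against 0.0015 for all genes, and all rest on the same libraries. With the block, 3 of 10 were called there (12% of all genes), PNMT (0.94, adjusted p = 0.000899, range over alternatives 8.95e-06 to 0.540), MIEN1 (0.35, adjusted p = 0.0118, range over alternatives 0.0118 to 0.358) and GRB7 (0.37, adjusted p = 0.0113, range over alternatives 5.65e-05 to 0.848), all higher in BT-TPR2.

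BT-TR2 against BT-TR1 gave 1 of 10 (17.7% of all genes), PNMT, at 13.1, 5.87 and 6.16 CPM in BT-TR2 against 3.86, 2.09 and 2.38 CPM in BT-TR1, without overlap (as for 40.0% of all genes). Its log2 fold change was 1.56 ± 0.45 (adjusted p = 0.0257, range over alternatives 9.32e-09 to 0.182). The call was lost with the GC correction (0.51, adjusted p = 0.139) and without BT-TR2 replicate 1 (1.08, adjusted p = 0.182), BT-TR1 replicate 2 (1.37, adjusted p = 0.110) or BT-TR1 replicate 3 (1.47, adjusted p = 0.104). MIEN1 (0.32 ± 0.11), GRB7 (0.60 ± 0.24) and PGAP3 (0.72 ± 0.31) were not called between these pools, with adjusted p of 0.0573, 0.0869 and 0.110. Of the 10 changes in that fit, 7 were above 0 and 3 below, with a median of 0.33 against 0.0087 for all genes. Replicates 2 and 3 alone called 5 of 10 (30.2% of all genes), with PNMT (1.45), PGAP3 (0.71), GRB7 (0.62) and MIEN1 (0.38) higher and MED1 (-0.32) lower in BT-TR2. No filter and library size alone called 3 each, beside 10.6% and 16.4% of all genes. DESeq2 called 2 (22.0% of all genes) and the GC correction called 0 (9.87%). The block, whose numbers did not pair these libraries, called 7 (42.8%).

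Genes further out on 17q12-q21 were called in both directions too. On the centromeric side, of 17 listed genes 14 had a row and 9 were tested, of which 2 rose with trastuzumab, 3 with both antibodies, 4 in BT-TR1, 3 in BT-TR2, 2 in BT-TPR1 and 4 in BT-TPR2, while CACNB1, a calcium channel subunit, fell by 1.41 in BT-TR1, fell by 0.75 in BT-TR2 and fell by 0.87 in BT-TPR1. Called shares of these 9 were 22.2% with trastuzumab (7.48% of all genes), 33.3% with both antibodies (12.4%), 55.6% in BT-TR1 (43.6%), 44.4% in BT-TR2 (24.9%), 33.3% in BT-TPR1 (27.3%) and 44.4% in BT-TPR2 (31.6%). The ribosomal protein genes RPL23 and RPL19 were among the rises, RPL19 by 0.36 for BT-TR1, 0.61 for BT-TR2, 0.43 for BT-TPR1 and 0.73 for BT-TPR2, and the actin-binding LASP1 rose by 0.42 for BT-TR1, 0.50 for BT-TR2 and 0.49 for BT-TPR2. On the telomeric list 16 of 23 genes were tested, among them GSDMB, which lies between IKZF3 and ORMDL3. Of the 16, 1 rose and 1 fell with each antibody treatment, 2 rose and 3 fell in BT-TR1, 3 rose and 1 fell in BT-TR2, 3 rose and 0 fell in BT-TPR1 and 2 rose and 1 fell in BT-TPR2. Their called shares were 12.5% with each antibody treatment, 31.2% in BT-TR1, 25.0% in BT-TR2 and 18.8% in each of BT-TPR1 and BT-TPR2, below the share of all genes in BT-TR1, BT-TPR1 and BT-TPR2. IGFBP4, an IGF-binding protein, fell by 1.35 in BT-TR1, fell by 1.18 in BT-TR2 and fell by 1.06 in BT-TPR2, and the retinoic acid receptor RARA fell by 1.58 in BT-TR1. The proliferation gene TOP2A fell by 0.83 with trastuzumab and fell by 0.93 with both antibodies. PPP1R1B, a phosphatase inhibitor that lies between CDK12 and STARD3, rose in all 4 pools (log2 fold changes of 3.38 for BT-TR1, 3.87 for BT-TR2, 5.40 for BT-TPR1 and 5.12 for BT-TPR2). From 2.26 CPM in untreated cells it was also called higher with both antibodies (0.59). It was higher there than with trastuzumab alone too (0.78), and was not called with trastuzumab (-0.18). GSDMB, between IKZF3 and ORMDL3, was called higher in BT-TPR2 and in no other pool (0.47 ± 0.17, adjusted p = 0.0378). It is among the 2 rises counted for BT-TPR2 on the telomeric list.

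**Figure D5:**
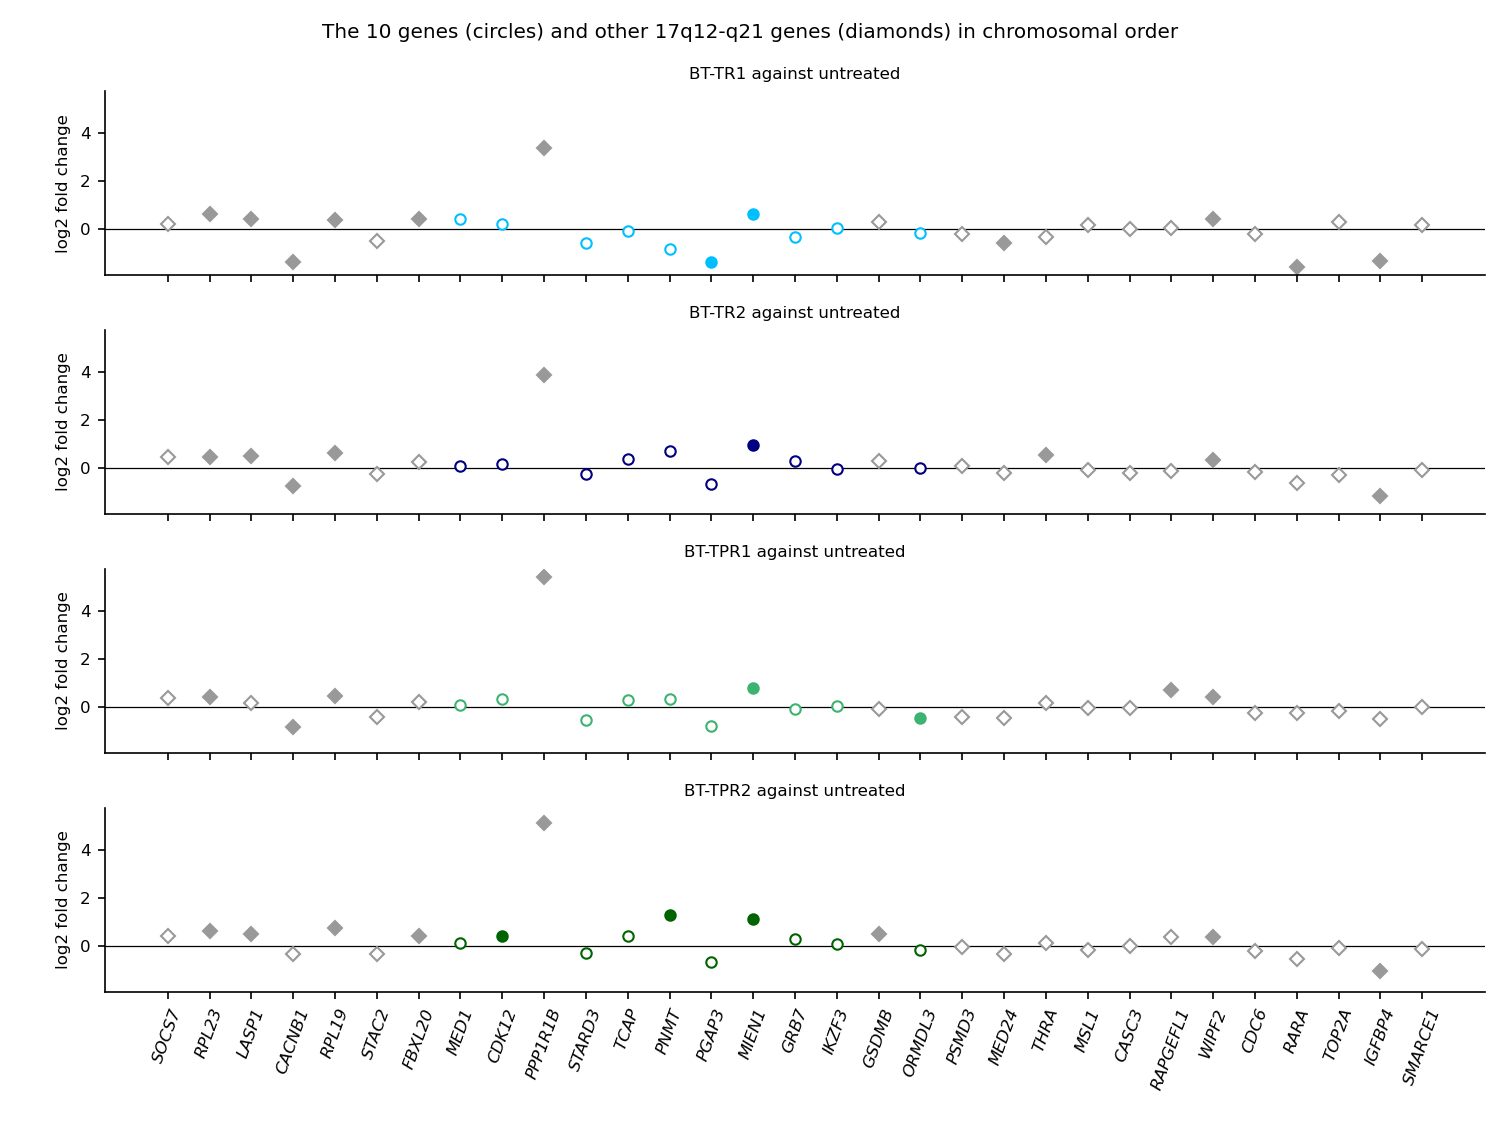
Log2 fold change against untreated cells in the 4 pools for the 10 genes (circles) and 21 other tested 17q12-q21 genes with a mean of at least 5 CPM (diamonds), evenly spaced in chromosomal order with ERBB2 left out; filled symbols have an adjusted p under 0.05. PPP1R1B is the high point in each panel, at 3.38 to 5.40. Taken over the panels, called genes on either side of the 10 point both up and down. No centromeric gene is called lower in BT-TPR2, and no telomeric gene is called lower in BT-TPR1.

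For the 5 of the 10 genes called against untreated cells, the genes of most similar pattern over the 7 group means (Pearson r of log2 CPM, 11368 genes compared, a description over 7 points) lay on other chromosomes. For MIEN1 they were UXT (r = 0.995), MRPS18BP2 (0.992) and PYM1 (0.990), and for PGAP3 NAT8L (0.994), CLN6 (0.992) and GATA3 (0.992). For CDK12 they were SDHB (0.994), KB-1460A1.5 (0.993) and GNB4 (0.991), for ORMDL3 PKP2 (0.987), TMEM55B (0.985) and ST8SIA6-AS1 (0.980), and for PNMT ELFN2 (0.974), DCPS (0.974) and TUBAP2 (0.971). The share of the compared genes that lie on chromosome 17 was not counted, so their placement does not show whether neighbours moved together. Among the 10 genes themselves r over the 7 group means ran from -0.84 (CDK12 and ORMDL3) to 0.80 (TCAP and GRB7).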

How the data were processed

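RNA from 21 libraries of BT474 cells and resistant pools was sequenced. The authors deposited raw read counts per gene and values on a log2-like scale; Bowtie2, featureCounts, DESeq2 and build hg38 are named in the submitters' processing notes, and versions, settings and strandedness are not given in the sources used here. Samples were grouped by treatment and pool from the labels. From the deposited counts, edgeR 4.0.16 under R 4.3.3 ran filterByExpr by group (minimum count 10, minimum total 15), TMM, 1 term per group over all 21 libraries (14 residual degrees of freedom), then the quasi-likelihood fit and F test (glmQLFit, glmQLFTest), p-values being adjusted by Benjamini-Hochberg across 17650 genes. Calls are at an adjusted p under 0.05. CPM uses normalized library sizes, and CPM per kb divides by the exon bases of a gene. Positions, exon lengths and GC content came from GENCODE 29, which matched 36530 of 37355 rows. Promoters came from RefSeq (GRCh38.p14), with an entry for 6 of the 10 genes. The steps were tested on simulated data.

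Alternatives were RLE normalization, library size alone, no filter, DESeq2 1.42.0, limma 3.58.1 on the deposited log2-like values, only the groups compared, the replicate number as a block (12 residual degrees of freedom), replicates 2 and 3 alone, a GC correction (spline with 5 degrees of freedom per library, 17554 tested genes with a GC value) with and without the block, and leaving out each of the 21 libraries, which makes 31 in all. The GC spline followed each library's deviation from the mean over all libraries. It therefore also takes out differences between groups that follow GC content. Same-numbered libraries deviated together over genes (every r above 0.1, lowest 0.135) in 7 of 9 comparisons, not in both antibodies against untreated (lowest -0.0106) or BT-TR2 against BT-TR1 (lowest 0.0732). Replicates of a group differed by 5.04 to 78.7 times counting error (chi-square per degree of freedom), so no 2 libraries were merged. The 10 genes and the gene lists were chosen with earlier results of these data known. All 10 genes are named, as are up to 3 called genes per list and comparison with a mean of at least 5 CPM, by size of change (not every one is printed), and the 3 genes of most similar pattern. PPP1R1B with both antibodies is named below that mean.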

Additional observations from a re-analysis of the deposited data

Results flagged for a closer look

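PNMT differed between the pools resistant to trastuzumab, where the comparison itself was tested: it was higher in BT-TR2 than in BT-TR1 by 1.56 on the log2 scale (SE 0.45, adjusted p = 0.0257 in edgeR's quasi-likelihood test, range over alternatives 9.32e-09 to 0.182). It was higher in 3 of 3 same-numbered libraries, and 26 of 31 alternatives kept the call. With the GC correction the difference was 0.51, and 18 to 52 counts per library lie behind the BT-TR1 values. The part of GC content in this difference was not tested.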

How the results depend on the processing

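In the order trastuzumab, both antibodies and the 4 pools as listed in the opening, each against untreated, then both antibodies against trastuzumab, BT-TR2 against BT-TR1 and BT-TPR2 against BT-TPR1, the main counts of the 10 genes called were 1, 1, 2, 1, 2, 3, 0, 1 and 0. RLE normalization and limma on the deposited values gave the same counts. Without a filter they were 3, 2, 5, 3, 4, 4, 0, 3 and 1, with DESeq2 2, 2, 3, 1, 3, 3, 0, 2 and 0, with library size alone 1, 1, 3, 1, 1, 2, 0, 3 and 0, and with only the groups compared 0, 0, 2, 1, 1, 1, 0, 1 and 0. The replicate block gave 4, 3, 7, 4, 5, 7, 0, 7 and 3, replicates 2 and 3 alone 1, 2, 4, 3, 5, 5, 0, 5 and 1, the GC correction 3, 3, 5, 5, 7, 6, 0, 0 and 2, and the GC correction with the replicate block 5, 4, 6, 5, 7, 6, 1, 2 and 5. Leaving out each library gave 0 to 1, 1 to 1, 2 to 3, 1 to 2, 1 to 3, 1 to 3, 0 to 0, 0 to 3 and 0 to 0. Over these comparisons 0.867 to 43.6% of all genes were called in the main test and 0.431 to 19.8% without a filter. DESeq2 called 1.18 to 44.3%, library size alone 0.674 to 38.0% and only the groups compared 0.317 to 33.2%. Replicate numbers did not pair libraries in both antibodies against untreated or BT-TR2 against BT-TR1, where the 3 and 7 calls with the block rest on a number alone. Of the 90 changes of single genes, 50 were called in the main test, with the block where numbers pair libraries, with the GC correction with or without it, or with replicates 2 and 3 alone, and these were followed over the alternatives. There 1379 values kept their direction and side of the threshold, 123 gained a call, 30 lost one and 18 reversed, none of them called in the main test. With the GC correction, and with the block added, the reversals were STARD3 (0.065 and 0.070), TCAP (0.80 and 0.80), PNMT (0.68 and 0.66) and GRB7 (0.37 and 0.37) in BT-TR1, and STARD3 in BT-TR2 against BT-TR1 (-0.22 and -0.22). Leaving out single libraries also turned the sign of TCAP in BT-TR1 (-0.23 to 0.045), GRB7 with trastuzumab (-0.088 to 0.31) and with both antibodies (-0.0029 to 0.40), and STARD3 in BT-TPR2 against BT-TPR1 (-0.085 to 0.40). The causes were not tested. PNMT rests on 18 to 311 counts per library.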
